A study of Mus musculus with 11 samples.

Results

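The 10 genes described here, *Pecam1*, *Cdh5*, *Kdr*, *Flt1*, *Tek*, *Tie1*, *Emcn*, *Cldn5*, *Eng* and *Egfl7*, mark the blood vessels of the tooth germ or encode receptors through which vessels grow. They were listed by symbol, with earlier results of these data known, and all 10 are among the 16755 genes of the deposited table. Maxillary molar tooth germs of mouse embryos at E14.5 were compared between 4 wild-type, 4 *Cilk1*-/- and 3 *Cilk1*-/-;PCS1-MRCS1△/△ libraries, the last called the compound mutant. The *Cilk1*-/- allele is a germline deletion of exon 6 of *Cilk1*, a kinase gene of the primary cilium, made with EIIa-Cre, so every cell of the germ carries it, the vessels included. The compound mutant also lacks a 70 kb interval from PCS1 to MRCS1, a region that holds enhancers of *Shh*. All mice were kept on the C57BL/6 background, sexes were mixed, and each library pooled material with n = 6, where the sources used here do not say whether 6 counts germs or embryos. The comparisons ask whether the vessel genes of the germ changed with the loss of *Cilk1*, alone or together with the enhancer interval.

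Endothelial cells line all blood vessels and are held to each other by adhesion proteins at their junctions. Vessel growth is driven by VEGF ligands, which act through the receptor tyrosine kinases VEGFR2 (*Kdr*) and VEGFR1 (*Flt1*), and is balanced by angiopoietins, which act through TIE2 (*Tek*) with its partner TIE1. In the developing tooth, capillaries gather in the mesenchyme around the epithelial bud and cap and later supply the dental papilla. ETS factors, whose binding motif has the core GGAA, are known regulators of many endothelial genes.

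The windows around the gene starts are shown for the receptors *Kdr*, *Flt1* and *Tek* and for *Eng* and *Emcn*, which had the larger differences between the compound mutant and *Cilk1*-/-, so that the genes compared most closely below can be read side by side. Reference windows of 250 bases before to 50 bases after the start (RefSeq, GRCm38.p6) were held for 8 of the 10 genes, in 10 windows, with none for *Pecam1* and *Cdh5*. Sequences run 5′ to 3′ on the gene's strand, and capitals mark GGAA or its reverse complement TTCC. They lie at chr2:32646345-32646644 on the plus strand (*Eng*), chr5:75978406-75978705 on the minus strand (*Kdr*), chr5:147725962-147726261 on the minus strand (*Flt1*), chr4:94739039-94739338 on the plus strand (*Tek*) and chr3:137340828-137341127 on the plus strand (*Emcn*).
Eng: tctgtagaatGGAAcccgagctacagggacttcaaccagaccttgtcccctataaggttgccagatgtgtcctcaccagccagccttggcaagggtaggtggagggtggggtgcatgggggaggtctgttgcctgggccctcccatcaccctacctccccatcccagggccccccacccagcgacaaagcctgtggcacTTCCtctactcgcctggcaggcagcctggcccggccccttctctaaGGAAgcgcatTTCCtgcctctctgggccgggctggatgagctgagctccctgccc
Kdr: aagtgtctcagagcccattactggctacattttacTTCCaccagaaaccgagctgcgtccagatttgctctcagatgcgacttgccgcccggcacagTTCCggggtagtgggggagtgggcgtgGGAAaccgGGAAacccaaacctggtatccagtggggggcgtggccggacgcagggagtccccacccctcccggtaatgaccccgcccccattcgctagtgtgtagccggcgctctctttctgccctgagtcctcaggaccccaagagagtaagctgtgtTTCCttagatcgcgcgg
Flt1: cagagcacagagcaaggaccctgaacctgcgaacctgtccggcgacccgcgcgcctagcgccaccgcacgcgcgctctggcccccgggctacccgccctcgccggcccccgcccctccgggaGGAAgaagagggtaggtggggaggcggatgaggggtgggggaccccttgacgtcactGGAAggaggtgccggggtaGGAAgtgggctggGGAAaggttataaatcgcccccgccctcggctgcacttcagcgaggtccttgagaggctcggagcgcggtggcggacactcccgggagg
Tek: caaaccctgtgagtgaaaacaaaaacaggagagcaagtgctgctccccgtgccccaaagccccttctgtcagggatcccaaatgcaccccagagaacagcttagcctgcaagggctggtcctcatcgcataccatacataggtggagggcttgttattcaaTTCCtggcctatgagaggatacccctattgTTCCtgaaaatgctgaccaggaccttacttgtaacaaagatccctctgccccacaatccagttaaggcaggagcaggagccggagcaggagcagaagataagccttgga
Emcn: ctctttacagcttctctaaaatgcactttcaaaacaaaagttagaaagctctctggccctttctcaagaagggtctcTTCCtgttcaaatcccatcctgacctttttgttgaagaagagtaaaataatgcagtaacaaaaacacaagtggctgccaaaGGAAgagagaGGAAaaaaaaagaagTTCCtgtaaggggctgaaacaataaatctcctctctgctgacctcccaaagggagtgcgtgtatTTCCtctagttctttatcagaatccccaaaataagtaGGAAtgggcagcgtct

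The *Eng* and *Flt1* windows each held 4 matches to GGAA or TTCC, *Kdr* held 5, *Emcn* 6 and *Tek* 2. *Tie1* held 9, the 3 *Egfl7* windows held 5, 4 and 1, and *Cldn5* held 0. This core is common, and 96.0% of 32851 mouse windows of the same length held it on either strand, with a median of 3 matches. The longer motif AGGAAG, which contains the core, was present on either strand in 6 of the 10 member windows, in *Flt1*, *Tie1*, *Emcn*, *Eng* and 2 windows of *Egfl7*, against 35.4% of all windows. Another longer form, CCGGAA, was in 1 member window, that of *Kdr*, and in 14.9% of all windows. The hypoxia response core was searched on both strands in its forms ACGTG and GCGTG. The first was in 0 of the 10 member windows and in 19.6% of all windows, and the second was in 4, of *Kdr*, *Flt1*, *Emcn* and *Egfl7*, and in 32.4% of all windows. These matches describe letters in the windows, not bound sites.

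*Egfl7*, which encodes a secreted vessel protein, is the host gene of the endothelial microRNA miR-126. Mir126a lies at chr2:26591357-26591429 (plus strand, GRCm38), in an intron of 8 of the 9 *Egfl7* transcripts that span it. Its 3p arm is shown with the seed (bases 2 to 8) in capitals, because the compound mutant libraries of *Egfl7* lay above all others. The microRNA was not measured in these poly-A libraries.
mmu-miR-126a-3p: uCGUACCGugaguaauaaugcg

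The deposited values are on a log2 scale, probably log2(FPKM + 1), and FPKM is a read count scaled per length and per library. The depth behind them is unknown, so errors are the spread between libraries. Turned back from the log2 scale, the values of a library summed to between 339971 and 364616 units. *Cilk1*, listed under its older symbol *Ick*, was between 3.45 and 3.60 in the wild-type libraries, 2.72 and 2.86 in *Cilk1*-/- and 2.60 and 2.67 in the compound mutant, and both mutants were called lower than wild type (log2 differences of −0.73 and −0.89, adjusted p = 0.000224 and 6.22e-05, limma). Wild-type and *Cilk1*-/- libraries of the same number deviated from their genotype means in opposite directions, with correlations over all genes of −0.74, −0.89, −0.85 and −0.79 for numbers 1 to 4. They are therefore not independent, the cause was not tested, and p-values fitted with the replicate number as a block are given beside calls that the block ends. The *Ick* differences passed with the block (adjusted p = 0.0229 and 0.0130, limma), but with the compound libraries placed in the block of replicate 4 the compound mutant did not (adjusted p = 0.109, limma). The labels put wild-type 4, *Cilk1*-/- 4 and the compound libraries in one protocol set and the other libraries in another. The compound libraries, replicate 1 most of all, stood apart in markers of other tissues. The summed level of 6 cartilage genes, led by *Col2a1*, *Sox9* and *Col9a1*, was 595, 42.4 and 36.6 units in compound replicates 1 to 3, all above the 21.8 to 27.2 of wild type and the 22.5 to 34.4 of *Cilk1*-/-. That of 8 neuronal genes was 233, 57.6 and 85.8 units in the compound libraries and 51.2 to 58.7 in *Cilk1*-/-, all above the 41.1 to 49.2 of wild type. Whether libraries of a genotype came from separate litters is not given, so the p-values measure the spread between these libraries. In whole germs, fewer endothelial cells and less RNA per endothelial cell cannot be told apart.

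All 10 members were detected in every library, at a log2 level of 2.18 or more, and in wild-type germs they ranged from *Cdh5* down to *Flt1*. *Cdh5* encodes VE-cadherin, the adhesion protein of endothelial junctions, and its log2 level was 4.89 ± 0.123 (SD, n = 4), which was higher than the level of 84.8% of all genes. *Egfl7* followed at 4.60 ± 0.0394, and then *Pecam1*, the adhesion molecule CD31, at 4.37 ± 0.138. *Eng*, the TGFβ and BMP co-receptor endoglin, was at 4.22 ± 0.0718. *Tie1* (3.93 ± 0.154), *Kdr* (3.78 ± 0.120), *Emcn* (3.63 ± 0.123), which encodes the surface sialomucin endomucin, and *Cldn5* (3.61 ± 0.201), which encodes the tight junction protein claudin-5, lay in the middle. The lowest were *Tek* at 2.56 ± 0.147 and *Flt1* at 2.32 ± 0.104. The steps from *Cdh5* to *Egfl7*, *Eng* to *Tie1*, *Cldn5* to *Tek* and *Tek* to *Flt1* were free of overlap between the libraries of neighbouring genes, whereas the other 5 neighbours overlapped. The summed level of the 10 members was 139 to 166 units in wild type, 134 to 155 in *Cilk1*-/- and 150 to 165 in the compound mutant, and the 3 ranges overlapped.

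**Figure D1:**
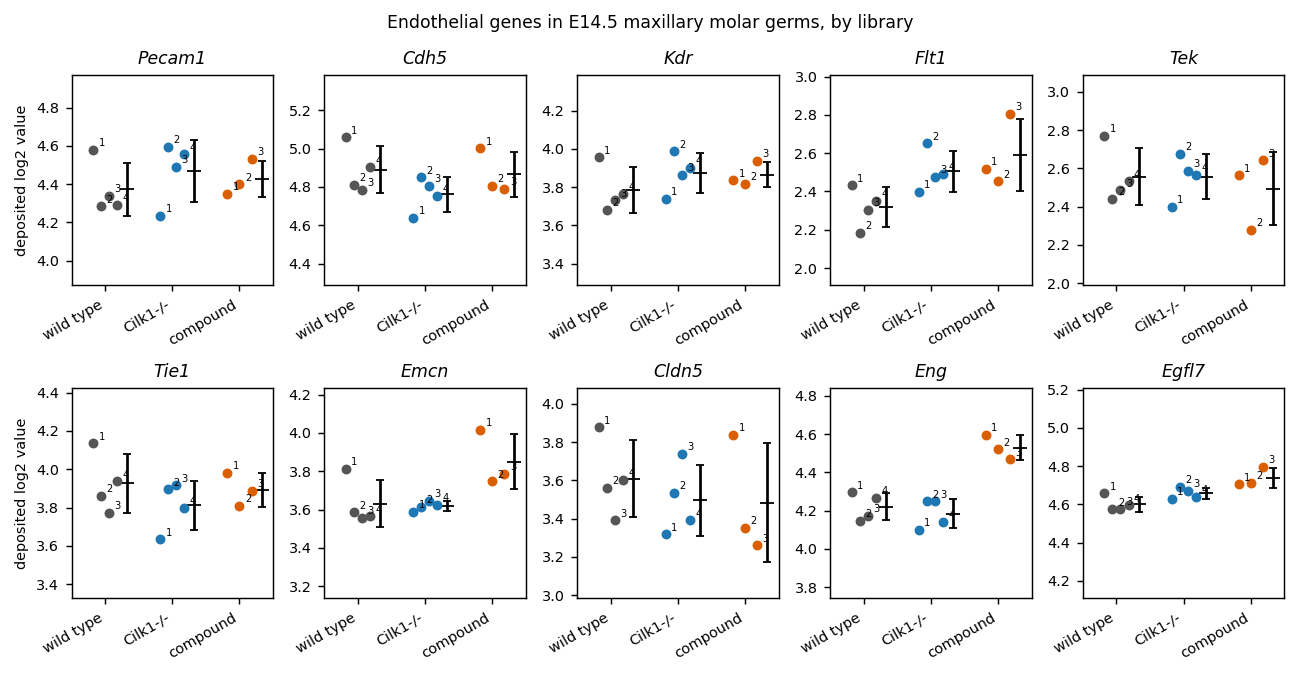
Deposited log2 value (y axis, 1.1 units high in each panel) of the 10 endothelial genes in each library, by genotype. Points carry the replicate number, and black bars give the mean and SD. Only *Eng* has its 3 compound mutant libraries (4.47 to 4.60) above all 8 other libraries by a clear gap, and wild-type 1 is the highest wild-type library in every panel.

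The first comparison was *Cilk1*-/- against wild type, and none of the 10 endothelial genes passed a test of difference. A call required an adjusted p under 0.05 together with a 1.5-fold change, taken as 0.58 on the deposited log2 scale. Of 10 members 0 met it, where 0.37% of all genes did. At an adjusted p under 0.05 alone the count was 0 (limma, 2.44% of all genes) and at an unadjusted p under 0.05 it was also 0, against 20.7% of all genes. The libraries of the 2 genotypes overlapped for every member, whereas they did not overlap for 20.9% of all genes. The members' differences had a median of −0.0056, against 0.0032 over all genes, and 5 members had a higher mean and 5 a lower one, where 51.2% of all genes had a higher mean.

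*Cdh5* and *Cldn5* had slightly lower means in *Cilk1*-/-, and *Pecam1* a slightly higher one, all within the spread of the libraries. *Cdh5* was 5.06, 4.81, 4.79 and 4.90 in wild-type libraries 1 to 4 and 4.64, 4.85, 4.80 and 4.75 in *Cilk1*-/- libraries 1 to 4. Its difference of −0.13 (standard error 0.0729, 95% interval −0.29 to 0.033, adjusted p = 0.351, limma) was the lowest among the members, and the groups overlapped. *Cldn5* was 3.88, 3.56, 3.39 and 3.60 in wild type and 3.32, 3.54, 3.74 and 3.39 in *Cilk1*-/-, the widest spread of the members. *Pecam1* was 4.58, 4.28, 4.34 and 4.29 in wild type and 4.23, 4.59, 4.49 and 4.56 in *Cilk1*-/-. In *Pecam1*, replicate 1 was the highest library of one genotype and the lowest of the other.

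Both VEGF receptors had slightly higher means, again within the spread. *Kdr*, the main signalling receptor for VEGF-A, was 3.96, 3.68, 3.73 and 3.77 in wild type and 3.74, 3.99, 3.87 and 3.90 in *Cilk1*-/-. *Flt1*, which binds VEGF-A tightly and signals weakly, was 2.43, 2.18, 2.30 and 2.35 in wild type and 2.40, 2.65, 2.48 and 2.49 in *Cilk1*-/-. The *Flt1* difference of 0.19 (standard error 0.0886, 95% interval −0.0086 to 0.38, adjusted p = 0.261, limma) was the highest of the members and did not pass the test. In linear units the *Flt1* mean of *Cilk1*-/- was 1.17 times that of wild type.

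Neither TIE receptor passed the test. *Tek* was 2.77, 2.44, 2.49 and 2.53 in wild type and 2.40, 2.68, 2.59 and 2.57 in *Cilk1*-/-, a difference of 0.00014 with a 95% interval of −0.22 to 0.22. *Tie1* was 4.13, 3.86, 3.77 and 3.94 in wild type and 3.63, 3.90, 3.92 and 3.80 in *Cilk1*-/-, a difference of −0.12 (adjusted p = 0.480, limma). *Emcn*, *Eng* and *Egfl7* differed by −0.011, −0.036 and 0.057. If 1 was added before the log, the call threshold of 0.58 stands for more than a 1.5-fold change, most of all for *Tek* and *Flt1*. A difference of 0.58 lay outside the 95% intervals of all 10 members. Their lowest bound was −0.43 (*Cldn5*) and their highest 0.38 (*Flt1*). With the replicate block the bounds were −0.46 and 0.42 for the same genes.

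**Figure D2:**
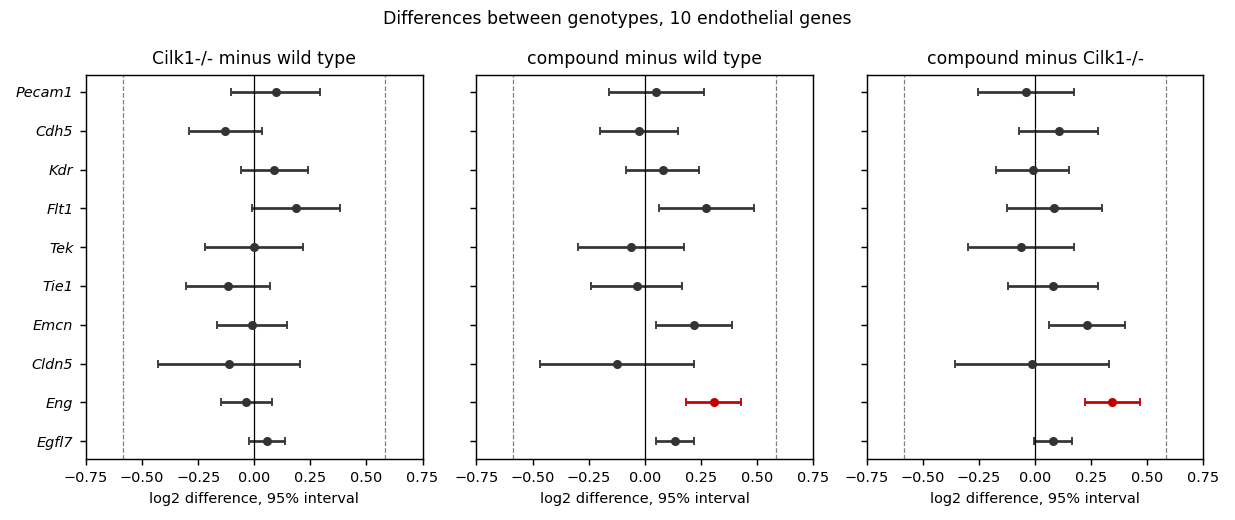
Log2 differences between genotypes for the 10 endothelial genes (points) with 95% intervals from limma (bars). Dashed lines mark the call threshold of 0.58, and red marks an adjusted p under 0.05. *Eng* alone is red, at 0.31 against wild type and 0.34 against *Cilk1*-/-, and every interval of this fit lies inside the dashed lines.

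In the compound mutant *Eng* stood apart from the other members. *Eng* was 4.60, 4.52 and 4.47 in compound libraries 1 to 3. It was 4.29, 4.15, 4.17 and 4.27 in wild type and 4.10, 4.25, 4.25 and 4.14 in *Cilk1*-/-. All 3 compound libraries were above all 8 others, and in linear units the means were 22.1, 17.7 and 17.2, a ratio of 1.25 to wild type. The difference was 0.31 against wild type (standard error 0.0554, 95% interval 0.19 to 0.43, adjusted p = 0.0155, limma) and 0.34 against *Cilk1*-/- (standard error 0.0554, 95% interval 0.22 to 0.47, adjusted p = 0.0145, limma). Both passed the adjusted p and fell short of the 1.5-fold threshold. With the replicate block the adjusted p-values were 0.127 and 0.178, and with the compound libraries in the block of replicate 4 they were 0.614 and 0.822 (limma).

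Compound replicate 1, the library with the highest cartilage and neuronal sums, had the highest *Eng* value. Like *Eng*, the cartilage sum was above all 8 wild-type and *Cilk1*-/- libraries in the other compound libraries too, and its part in the *Eng* difference was not tested. Without replicate 1 the *Eng* differences were 0.27 (adjusted p = 0.0359, limma) and 0.31 (adjusted p = 0.0340, limma). Without *Cilk1*-/- replicate 4 the adjusted p against *Cilk1*-/- was 0.0543. Within the protocol set that holds the compound libraries, their mean of 4.53 compared with 4.27 in wild-type 4 and 4.14 in *Cilk1*-/- 4, with 1 library on that side and so no test. With the protocol set as a term in the fit, the lowest adjusted p of any member was 0.163 against wild type and 0.197 against *Cilk1*-/- (limma).

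*Flt1*, *Emcn* and *Egfl7* were also listed higher in the compound mutant and did not pass the adjusted test. *Flt1* was 2.52, 2.45 and 2.81 in the compound libraries, all above the 4 wild-type libraries, with a difference of 0.27 from wild type (standard error 0.0957, adjusted p = 0.109, limma). Without compound replicate 3 that difference was 0.17. Against *Cilk1*-/- the groups overlapped and the difference was 0.086. *Egfl7* was 4.70, 4.71 and 4.80 in the compound mutant, against 4.66, 4.57, 4.58 and 4.59 in wild type and 4.63, 4.69, 4.67 and 4.64 in *Cilk1*-/-. The compound *Egfl7* libraries overlapped neither group, and the differences were 0.14 (adjusted p = 0.0581, limma) and 0.080 (adjusted p = 0.238, limma).

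*Emcn* was 4.02, 3.75 and 3.79 in the compound mutant, with replicate 1 well above the other two. It was 3.81, 3.59, 3.56 and 3.57 in wild type and 3.59, 3.61, 3.65 and 3.62 in *Cilk1*-/-. The differences were 0.22 (adjusted p = 0.106, limma) and 0.23 (adjusted p = 0.112, limma), and without compound replicate 1 they were 0.14 and 0.15. Against *Cilk1*-/- the *Emcn* libraries did not overlap, and against wild type they overlapped through wild-type 1.

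The other 6 members had differences between −0.12 and 0.10 in both comparisons. *Cldn5* was 3.84, 3.35 and 3.26 in compound libraries 1 to 3, and *Cdh5* was 5.003, 4.81 and 4.79, so replicate 1 was the highest compound library for both. *Pecam1* was 4.35, 4.40 and 4.53 and *Kdr* was 3.84, 3.82 and 3.94, with replicate 3 the highest. *Tek* was 2.56, 2.28 and 2.64 and *Tie1* was 3.98, 3.81 and 3.89. The compound libraries of these 6 genes overlapped both other genotypes. The 95% intervals of all 10 members stayed within a log2 difference of 0.58 in either direction in both comparisons. With the compound libraries in the block of replicate 4, those of *Cldn5* (lowest bound −0.61) and *Flt1* (highest bound 0.62) against wild type did not. If 1 was added before the log, 0.58 stands for more than a 1.5-fold change, most of all for *Tek* and *Flt1*.

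Counted over the 10 members, 0 were called in the compound mutant against wild type, where 1.25% of all genes were, and 0 against *Cilk1*-/-, where 0.543% were. Only *Eng* passed the adjusted p alone, against 6.58% of all genes relative to wild type and 3.33% relative to *Cilk1*-/-. At an unadjusted p under 0.05, 4 members were higher and 0 lower against wild type, where 12.9% and 13.8% of all genes were, and 2 were higher against *Cilk1*-/-, where 10.9% of all genes were. The compound libraries lay above all wild-type libraries for 3 members, against 8.92% of all genes, and above all *Cilk1*-/- libraries for 3 members, against 7.74%. The members' median difference was 0.066 from wild type and 0.080 from *Cilk1*-/-, where all genes had −0.0016 and 0.0028. The comparisons share libraries in pairs, so their values for a member are not independent of each other.

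The balance between paired members was followed within each library. *Kdr* exceeded *Flt1* by 1.42 to 1.52 on the log2 scale in wild type, by 1.34 to 1.41 in *Cilk1*-/- and by 1.13 to 1.36 in the compound mutant. The lowest wild-type gap of 1.417 lay just above the highest of *Cilk1*-/-, 1.409, and 20.9% and 18% of single genes did not overlap between wild type and *Cilk1*-/- or the compound mutant. *Tie1* exceeded *Tek* by 1.29 to 1.42 in wild type, 1.22 to 1.33 in *Cilk1*-/- and 1.24 to 1.53 in the compound mutant, and these ranges overlapped. *Cdh5* exceeded *Eng* by 0.61 to 0.76, 0.54 to 0.61 and 0.29 to 0.41, and the compound mutant lay below both other genotypes. This gap uses the *Eng* values given above, so it is not a separate result. Between the compound mutant and *Cilk1*-/-, 17% of single genes did not overlap. For this pair too, the lowest wild-type gap, 0.6128, lay just above the highest of *Cilk1*-/-, 0.6117.

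The members' libraries were partly ordered alike. Wild-type 1 was the highest wild-type library for 10 of 10 members and 28.8% of all genes, and *Cilk1*-/- 1 was the lowest *Cilk1*-/- library for 10 of 10 and 30.9% of all genes. In the compound mutant the members did not share an order, and replicates 1 and 3 were each the highest for 5 of 10. The range over the 11 libraries had a median of 0.476 over the members, against 0.340 over the 7321 genes with a mean level within that of the members. Over the 11 libraries the median Pearson correlation between the 45 pairs of members was 0.475, from −0.18 (*Cldn5* and *Flt1*) to 0.938 (*Tie1* and *Cdh5*), and *Cldn5* was the least like the others, with a median of 0.20. For the members, the correlations of deviations between wild-type and *Cilk1*-/- libraries of numbers 1 to 4 were −0.69, −0.90, −0.92 and −0.62. These libraries are few and not independent, so the correlations are descriptions.

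**Figure D3:**
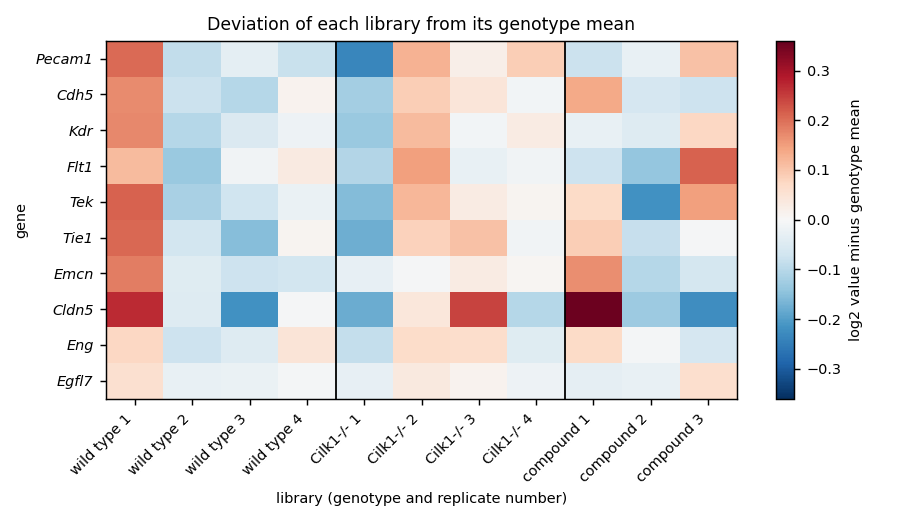
Deviation of each library (x axis, genotype and replicate number) from its genotype mean on the log2 scale (colour), for the 10 endothelial genes (y axis). The columns of wild-type 1 (all positive) and *Cilk1*-/- 1 (all negative) mirror each other, and compound 1 is highest in *Cldn5* and *Emcn*.

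Across the 11 libraries, the genes whose log2 values were most like the mean of the 10 members were *Slc17a5* (Pearson r of 0.942), *Arl10* (0.941), *Plxnd1* (0.938), *Podxl* (0.927), *Tmem19* (0.924), *Nfe2l1* (0.923), *Gpr107* (0.920), *Scamp1* (0.917), *Zfyve27* (0.916) and *Ctage5* (0.909). *Plxnd1* encodes an endothelial semaphorin receptor and *Podxl* a sialomucin that vessels also carry. The 12 other angiogenic receptors had a median r of 0.648 with the member mean, 24 other endothelial genes one of 0.386, and all genes with a mean of at least 1 one of −0.026. The order of these 10 genes depends on single libraries, and between 2 and 9 of them remained when 1 library was left out.

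Of 25 other endothelial genes, all 25 were listed and 0 were called in any comparison. The most abundant in wild type were *Ramp2* at 41.9 units, *Cd34* at 24.2 and *Plvap* at 19.6. Their median differences were 0.0089 in *Cilk1*-/-, 0.011 in the compound mutant against wild type and −0.037 against *Cilk1*-/-. Their summed level was 206 to 231 units in wild type, 204 to 227 in *Cilk1*-/- and 210 to 223 in the compound mutant. *Plvap*, the diaphragm protein of fenestrated capillaries, was 4.62, 4.68 and 4.46 in the compound mutant and 4.08, 4.29, 4.27 and 4.01 in *Cilk1*-/-. It was the only one to pass an adjusted p, in that comparison (difference 0.42, adjusted p = 0.0431, or 0.226 with the replicate block, limma). In wild type *Plvap* was 4.49, 4.21, 4.26 and 4.48, which overlapped both mutants. *Gpihbp1*, which carries lipoprotein lipase across capillaries, had the largest differences from wild type, 0.59 in *Cilk1*-/- (adjusted p = 0.133, limma) against 0.63 with the compound genotype (adjusted p = 0.102, limma). *Gpihbp1* is named after its values were seen.

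Of 12 listed angiogenic ligands, *Vegfa* was the one that passed the adjusted p in both mutants. *Vegfa*, the main growth factor for vessels and a product of several germ cell types, was 5.67, 5.40, 5.57 and 5.40 in wild type. It was 5.77, 6.05, 5.90 and 6.03 in *Cilk1*-/- and 5.94, 6.15 and 5.99 in the compound mutant. The mutant libraries lay above all wild-type libraries. *Cilk1*-/- differed from wild type by 0.43 (standard error 0.0819, adjusted p = 0.0293, limma). For the compound mutant the value was 0.52 (standard error 0.0884, adjusted p = 0.0131, limma), and both were below the 1.5-fold threshold. With the replicate block the adjusted p-values were 0.161 and 0.111 (limma). The adjusted p of *Cilk1*-/- also rose above 0.05 when any of wild-type or *Cilk1*-/- replicates 2, 3 and 4 was left out (0.0731 to 0.103, limma). The wild-type mean of 44.7 units became 60.5 and 64.3, while *Kdr* had 12.8, 13.7 and 13.6.

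The remaining VEGF and angiopoietin genes did not pass the adjusted test in any comparison. *Vegfb* and *Vegfc* had differences from wild type of 0.025 and −0.074 in *Cilk1*-/- and 0.11 and −0.052 in the compound mutant. *Pgf*, a ligand of *Flt1*, was 2.57, 3.30 and 1.95 in the compound mutant against 2.75 to 3.18 in wild type. *Angpt1*, the activating ligand of *Tek*, was 3.27, 3.46 and 4.12 in the compound mutant and 3.54 to 3.88 in wild type. *Angpt2*, the context-dependent ligand of *Tek*, was 2.64 in compound replicate 1 and 1.19 to 1.60 in the other 10 libraries.

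Among the co-receptors, *Nrp2* was 5.08, 4.76, 4.64 and 4.83 in wild type, 5.02, 5.33, 5.37 and 5.19 in *Cilk1*-/- and 5.85, 5.06 and 5.07 in the compound mutant. Its difference from wild type in the compound mutant was 0.50 (adjusted p = 0.123, limma), and 0.23 without compound replicate 1. *Nrp1* and the lymphatic receptor *Flt4* had differences between −0.12 and 0.20 in the 3 comparisons. Of 12 other angiogenic receptors, with *Ephb4*, *Plxnd1* and *Nrp2* the most abundant, 0 were called, and of the 12 ligands, 0 were called. *Efnb2*, an arterial ligand, was lower in *Cilk1*-/- (difference −0.22, adjusted p = 0.0303, or 0.182 with the replicate block, limma). *Apln*, a tip cell ligand, was 2.20 to 2.48 in wild type, 2.49 to 2.68 in *Cilk1*-/- and 2.61 to 2.87 in the compound mutant, so that both mutants lay above wild type. For *Cilk1*-/- the difference was 0.24 (adjusted p = 0.145, limma). Compound germs differed by 0.39 (adjusted p = 0.0362, or 0.174 with the replicate block, limma). *Apln* is named after its values were seen.

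**Figure D4:**
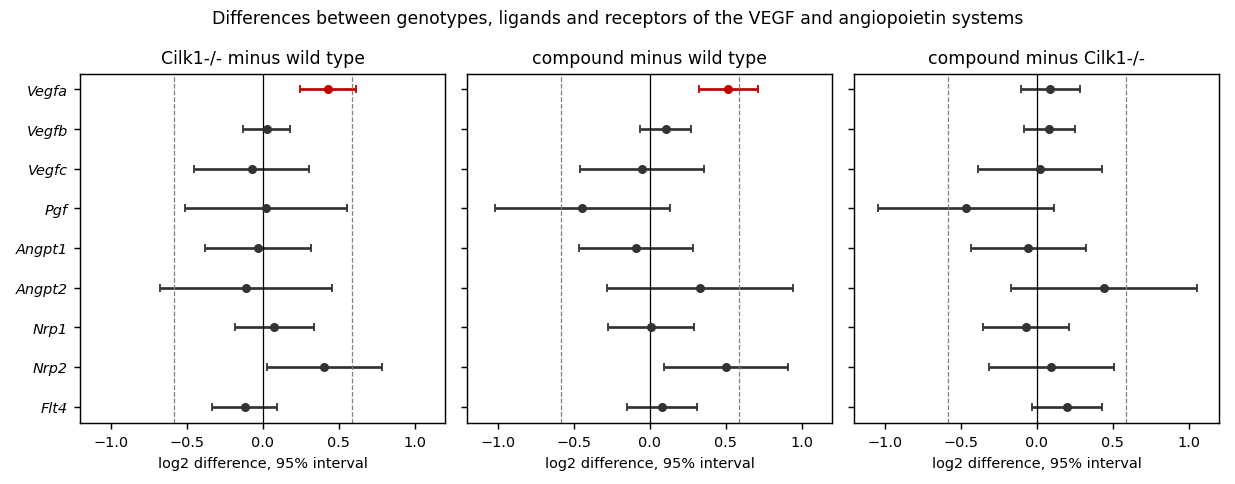
Log2 differences between genotypes (points) with 95% intervals from limma (bars) for ligands and other receptors of the VEGF and angiopoietin systems. Dashed lines mark the call threshold of 0.58, and red marks an adjusted p under 0.05. *Vegfa* alone is red, at 0.43 and 0.52 against wild type.

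*Vegfa* is a known target of the hypoxia response, and 8 other hypoxia-responsive genes were followed beside it, from a list drawn up with earlier results of these data in view. Both mutants had higher means than wild type for all 8. In *Cilk1*-/- 0 of 8 were called and 3 passed the adjusted p alone, namely *Pdk1*, *Ndrg1* and *Bnip3*, with adjusted p-values of 0.134, 0.168 and 0.103 once the replicate block was fitted (limma). The *Bnip3* difference of 0.576 fell just below the threshold of 0.585 on the deposited log2 scale. In linear units its *Cilk1*-/- mean was 1.52 times that of wild type. *Pdk1* is named after its values were seen. In the compound mutant 6 of 8 were called higher against wild type, namely *Car9*, *Ndrg1*, *Bnip3*, *P4ha1*, *Slc2a1* and *Ankrd37*, where 0.615% of all genes were. *Bnip3*, a mitophagy receptor, was 4.31, 4.13, 4.45 and 4.22 in wild type, 4.76, 4.98, 4.74 and 4.93 in *Cilk1*-/- and 5.05, 5.21 and 5.07 in the compound mutant. Its difference in the compound mutant was 0.83 (standard error 0.0838, adjusted p = 0.00176, limma). The summed level of the list was 114 to 129 units in wild type, 147 to 178 in *Cilk1*-/- and 175 to 220 in the compound mutant. Under the replicate block only *Ndrg1* and *Bnip3* remained called there, and none did with the compound libraries in the block of replicate 4. When a library was left out, *P4ha1* and *Slc2a1* rose above an adjusted p of 0.05 without wild-type replicate 2 or 4 (0.0514 to 0.0608 and 0.0553 to 0.0618, limma), and *Car9* did so without any wild-type replicate or without *Cilk1*-/- replicate 2, 3 or 4 (0.0501 to 0.109, limma). In *Cilk1*-/-, *Ndrg1* did so without any wild-type replicate or without *Cilk1*-/- replicate 2, 3 or 4 (0.0720 to 0.128, limma). The compound difference of *Car9* from wild type fell to 0.41 without compound replicate 1, and that of *Slc2a1* to 0.47 without compound replicate 2. Both values were below the 1.5-fold threshold, so these calls ended there too.

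**Figure D5:**
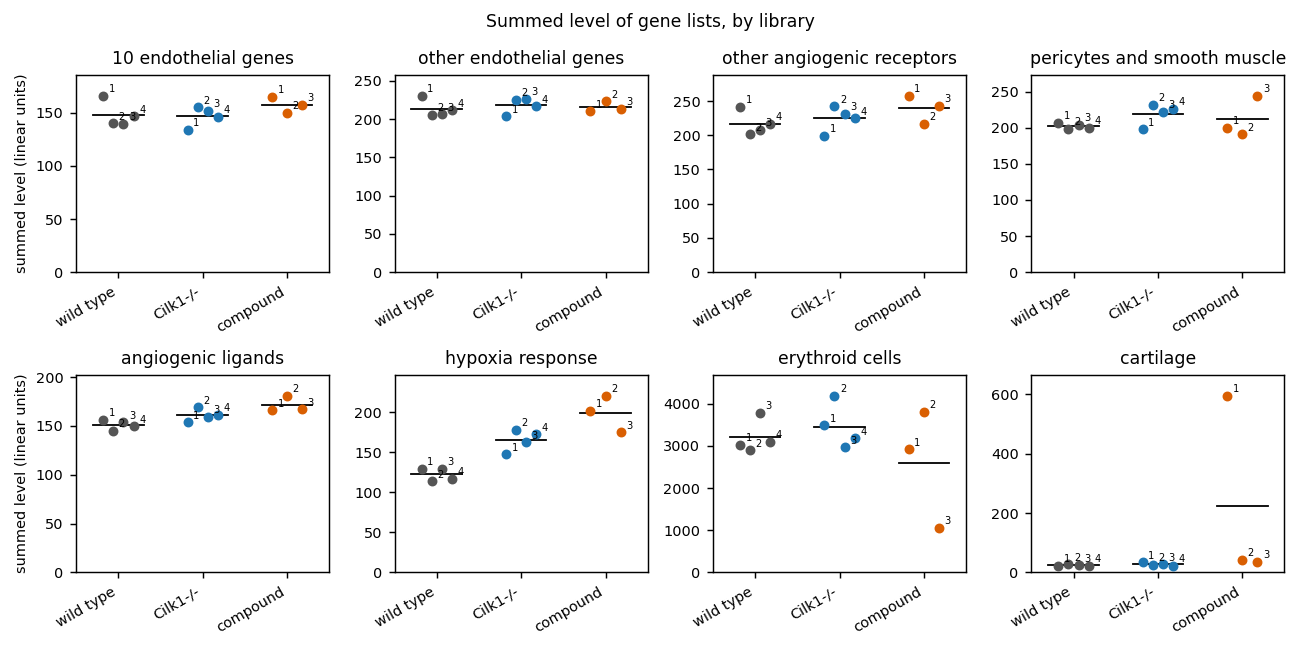
Summed level (y axis, linear units turned back from the log2 scale) of 8 gene lists in each library, by genotype; points carry the replicate number and lines give the mean. The 3 genotypes overlap for the 10 endothelial genes, the hypoxia list lies above wild type in both mutants, and compound 1 stands apart for cartilage at 595 units.

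Markers of cells beside the vessels were followed in the same libraries. Of 13 listed genes of pericytes and smooth muscle, of which *Pdgfrb*, *Mcam* and *Notch3* were the most abundant, 0 were called in any comparison, and their summed level was 199 to 207 units in wild type, 198 to 232 in *Cilk1*-/- and 191 to 244 in the compound mutant. *Ndufa4l2*, a pericyte gene named after its values were seen, was higher than in wild type by 0.97 (adjusted p = 0.0599, limma) without *Cilk1*, and by 0.79 (adjusted p = 0.0891, limma) in compound germs. The 12 listed erythroid genes, led by the globins *Hba-a1*, *Hbb-bs* and *Hbb-bt* and reporting blood held in the germs, summed to 2893 to 3786 units in wild type, 2966 to 4183 in *Cilk1*-/- and 1061 to 3815 in the compound mutant, where replicate 3 was the lowest. Replicate 3 was the highest compound library for 5 of the 10 members (*Pecam1*, *Kdr*, *Flt1*, *Tek* and *Egfl7*) and the lowest for 3 (*Cdh5*, *Cldn5* and *Eng*). The platelet list (led by *Pf4*, *Itga2b* and *Gp1bb*) and the macrophage list (led by *C1qb*, *Tyrobp* and *Laptm5*) overlapped between the 3 genotypes in their summed levels, at 7.76 to 11.9 and 46.1 to 72.1 units, and 0 of their genes were called.

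Of 6 artery and vein genes, led by *Nr2f2*, *Hey1* and *Cxcr4*, 0 were called, and *Gja4*, an arterial connexin named after its values were seen, was lower in the compound mutant than in wild type (difference −0.44, adjusted p = 0.0403, or 0.170 with the replicate block, limma). The 5 listed lymphatic genes, led by *Pdpn*, *Mmrn1* and *Reln*, had 0 calls. Skeletal muscle genes summed to 8.4 to 28.6 units in wild type, 19.0 to 52.5 in *Cilk1*-/- and 6.8 to 7.5 in the compound mutant, and *Acta1*, *Actc1* and *Myh3* were called lower in the compound mutant than in *Cilk1*-/-, where 0.388% of all genes were. These 3 calls ended with the replicate block (adjusted p = 0.218, 0.181 and 0.192, limma). Of 11 fits that each left out 1 library, *Acta1* lost its adjusted p in 9 (up to 0.104, limma), *Myh3* in 6 (0.0528 to 0.0852, limma) and *Actc1* in 1, that without *Cilk1*-/- 4 (0.0667, limma). *Tubb3*, a neuronal tubulin, was called higher in the compound mutant than in wild type (adjusted p = 0.0268, or 0.127 with the replicate block, limma), and the call was lost without wild-type 1, 2 or 4. The dental mesenchyme list, led by *Barx1*, *Msx1* and *Prrx1*, had 0 calls and summed to 770 to 860 units in wild type, to 690 to 799 in *Cilk1*-/- and to 504, 575 and 809 in the compound libraries, lowest in replicate 1. These shifts in the other tissues moved with the compound genotype, with its replicate 1 or, in part, with the loss of *Cilk1* alone. In *Cilk1*-/- the neuronal sum lay above wild type. The mean skeletal muscle sum was 31.9 units in *Cilk1*-/- against 16.4 in wild type, with overlapping libraries. What part the shifts had in the *Eng* and *Emcn* differences was not tested.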

How the data were processed

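RNA of E14.5 maxillary molar germs was measured in 11 libraries. The authors sequenced poly-A RNA, mapped reads to mm10 with HISAT2 2.0.5, counted them with featureCounts 1.5.0-p3 and tested counts with edgeR. The deposited log2 values were taken as log2(FPKM + 1), which the file does not state, and 257 of the 16755 genes have a value below 0, whose origin is not given in the sources used here. Without counts the depth is unknown and count models were not used.

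Genotypes were compared with limma 3.58.1 (R 4.3.3; lmFit, eBayes with trend and robust) in 1 fit over the 3 genotypes without covariates, with Benjamini-Hochberg adjustment over all genes. Calls required an adjusted p under 0.05 together with a 1.5-fold change, taken as 0.58 on the deposited log2 scale. The added 1 understates changes of low genes. The members and the 16 other lists were chosen with earlier results of these data known, so no list received a test of its own. Named were the 10 members, the main VEGF and angiopoietin genes, list genes that were called or, in a list with none, the 3 most abundant in wild type, and the 10 genes most like the members' mean; others are marked. Summed levels add values after subtraction of 1 from the antilog. Positions come from GENCODE vM21 (GRCm38). *Vegfd*, *Higd1b*, *Ccl21a*, *Ahsp*, *Epb42* and *Adgre1* were not analysed here, and some list results are not reported here. Alternatives were the replicate block, also with the compound libraries in block 4, the protocol set, only the 2 genotypes compared, another variance model, a filter at a mean of 1, a pseudocount of 0.1, median centring, quantile normalization, other thresholds and leaving out each library. Plots used Python 3.11.15 and matplotlib 3.10.9.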

Additional observations from a re-analysis of the deposited data

Results flagged for a closer look

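In 58 groups of 4 libraries examined (the 10 members, 9 ligands and receptors of the VEGF and angiopoietin systems and 10 called genes of the other lists, in wild type and *Cilk1*-/-), 3 held a library whose gap to the nearest of the others took up more of the group's range than Dixon's 95% critical value. Chance gives about 1 in 20 such groups. *Emcn* was 3.81 in wild-type replicate 1, with the other wild-type libraries between 3.56 and 3.59. *Slc2a1*, a glucose transporter of the hypoxia list, was 5.63 in *Cilk1*-/- replicate 1, with the others between 5.93 and 5.96. *Car9*, a carbonic anhydrase of the same list, was 1.27 in *Cilk1*-/- replicate 1, with the others between 1.49 and 1.52. The cause was not tested.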

How the results depend on the processing

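The count of called members was 0 in the 3 comparisons under every alternative except an adjusted p without a fold threshold, which gave 1 (*Eng*) in both compound comparisons. *Eng* lost its adjusted p under the replicate block, with the compound libraries in block 4, with the protocol set as a term and in fits of only the 2 genotypes compared, where the lowest member values were 0.0818 against wild type and 0.0983 against *Cilk1*-/-. With 1 library left out, its adjusted p was 0.0117 to 0.0473 against wild type and 0.00815 to 0.0543 against *Cilk1*-/-. Without compound replicate 2, *Flt1*, *Emcn* and *Egfl7* also passed against wild type (adjusted p = 0.0427, 0.0463 and 0.0360, limma), while over all left-out libraries their adjusted p-values reached 0.226, 0.276 and 0.140.

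Genes of the other lists called in *Cilk1*-/- against wild type numbered 0, and 3 with only the 2 genotypes, 1 with the pseudocount, 1 with quantile normalization, 5 with no fold threshold, 5 at an unadjusted p with the fold, and 0 to 2 with 1 library left out. For the compound mutant against wild type they numbered 7, and 2 with the replicate block, 0 with block 4, 1 with the protocol set, 2 with only the 2 genotypes, 11 with the pseudocount, 13 with no fold threshold, 21 at an unadjusted p, and 3 to 18 with 1 library left out. Against *Cilk1*-/- they numbered 3, and 0 with the block, with block 4, with the protocol set and with only the 2 genotypes, 5 with no fold threshold, 11 at an unadjusted p, and 0 to 16 with 1 library left out. The cause was not tested.

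Some differences that did not pass the test changed sign, most of them near 0; those of *Angpt2* in the compound mutant, 0.33 against wild type and 0.44 against *Cilk1*-/-, did so without compound replicate 1. *Tek* in *Cilk1*-/- was −0.017 with median centring and −0.036 with quantile normalization, *Nrp1* in the compound mutant against wild type was −0.014 with median centring, and *Cldn5* against *Cilk1*-/- was 0.042 with block 4 and 0.042 with the protocol set. With 1 library left out, differences in *Cilk1*-/- ran from −0.040 to 0.071 (*Tek*), −0.036 to 0.050 (*Emcn*), −0.0025 to 0.065 (*Vegfb*), −0.079 to 0.10 (*Pgf*) and −0.089 to 0.026 (*Angpt1*). In the compound mutant against wild type they ran from −0.092 to 0.033 (*Cdh5*), −0.14 to 0.046 (*Tek*), −0.086 to 0.034 (*Tie1*), −0.23 to 0.16 (*Vegfc*), −0.34 to 0.083 (*Angpt1*), −0.12 to 0.60 (*Angpt2*), −0.13 to 0.096 (*Nrp1*) and −0.021 to 0.19 (*Flt4*). Against *Cilk1*-/- they ran from −0.054 to 0.028 (*Kdr*), −0.020 to 0.16 (*Flt1*), −0.14 to 0.046 (*Tek*), −0.19 to 0.099 (*Cldn5*), −0.018 to 0.15 (*Vegfb*), −0.16 to 0.24 (*Vegfc*), −0.31 to 0.12 (*Angpt1*), −0.0036 to 0.72 (*Angpt2*), −0.20 to 0.0034 (*Nrp1*) and −0.17 to 0.23 (*Nrp2*). Of the 10 genes most like the members' mean, 2 to 9 remained with 1 library left out and 7 to 9 under the other scalings and the pseudocount. Without the counts, what depth limits cannot be stated.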
